A study of Mus musculus with 7 samples.

Results

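The genes described here are 34 genes of endoplasmic reticulum (ER) stress and protein folding, out of 55536 genes counted by RNA sequencing in sorted mouse pancreatic alpha cells, which make glucagon in the islets. They were taken by symbol from a named set and fall into 15 chaperones and folding enzymes, 4 stress sensors and regulators, 6 genes of the Perk-Atf4 arm, 7 genes of ER-associated degradation and 2 genes of translocation into the ER. The table holds 35 entries for the 34 symbols, because Ddit3 has a second gene model, which had 0 counts in every library. Every count below is therefore for 34 genes. All 34 could be tested, since none was removed by the filter on low counts.

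The control group was 4 libraries from alpha cells of Nkx2.2+/+;Gcg-iCre;Rosa26:tdTomato mice, and the knockout (KO) group was 3 libraries from Nkx2.2fl/fl;Gcg-iCre;Rosa26:tdTomato mice. The question put to this design was what the homeodomain factor Nkx2-2 does to the alpha cell transcriptome. All 7 libraries thus come from animals with Cre recombinase under control of Gcg, the glucagon gene, and a red fluorescent reporter, tdTomato, and the groups differ in whether Nkx2-2 can be recombined. Cells were sorted by fluorescence, which shows that the reporter had recombined in a cell and not that Nkx2-2 had. The strain is spelled C57B1/6J in the series' text, while age, sex and whether animals were pooled are not given in the sources used here. Nothing in those sources says that the libraries of a group came from separate animals, so p-values measure only the spread between these libraries.

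Total counts per library ran from 45483504 to 72456557, and the 2 deepest libraries were control 4 and a KO library whose column number matches no sample title, called here the unnumbered KO library. Genes with at least 1 count numbered 31024 in control 4, 23150 to 24153 in the other controls and 24360 to 25873 in KO libraries. The unnumbered KO library was at 25873, so control 4 stood apart from it in more than total counts. The cause was not tested. Nkx2-2 itself had 8596 to 12297 normalized counts in controls and 7534 to 7758 in KO libraries. Its log2 fold change was -0.45 (adjusted p = 0.0223 in DESeq2 and 0.152 in edgeR), and which of the counted exons lie in the deleted part is not given in the sources used here. The summed normalized counts of 10 alpha cell markers were 6495659 to 8487046 in controls and 2985799 to 4306991 in KO libraries. All 10 were detected in every library. The sums for other endocrine cells were 336739 to 690569 against 529402 to 973010 for 8 beta cell markers, 196938 to 399679 against 356582 to 633074 for 4 delta cell markers, and 308242 to 579053 against 888245 to 1135028 for 2 gamma cell markers. Those for 10 acinar markers were 784 to 13984 against 2120 to 7913, and for 5 duct markers 8350 to 12381 against 11901 to 12455. The other control and KO ranges were, in that order, those of 4 mesenchymal (1327 to 3765 against 2156 to 3956), 5 leukocyte (857 to 1394 against 626 to 738), 4 endothelial (163 to 224 against 111 to 713) and 4 plasma and B cell markers (61 to 191 against 93 to 234). A sum follows its most abundant genes. Gcg alone averaged 7.04e+06 in controls and 3.42e+06 in KO libraries, and 8 of the 10 alpha markers had estimates below 0. Of 3 leukocyte markers tested, 2 had estimates above 0 and 1 was called lower in DESeq2, at a log2 fold change of -0.82. Of the defining markers, Rbpjl, Ptprc, C1qb, Cd52, Mzb1 and Igkc were at 0 in at least 1 library and none was at 0 in all. In bulk samples a change in the share of a cell type and a change in RNA per cell cannot be told apart.

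The ER is where secreted proteins, the glucagon precursor among them, enter the secretory pathway and where they are folded and many are glycosylated or given disulfide bonds. Unfolded protein in its lumen is sensed by 3 membrane proteins, Ire1 (Ern1), Perk (Eif2ak3) and Atf6, which are held inactive by the chaperone BiP (Hspa5). Ire1 splices Xbp1 mRNA and Atf6 is cleaved to a transcription factor, and both factors act on chaperone and degradation genes. Perk phosphorylates the initiation factor eIF2 alpha, which lowers general translation while raising the translation of Atf4, whose targets include Ddit3 (Chop), Trib3, Asns and Chac1. Secretory cells such as islet cells run this response at a basal level. Activation of Ire1, Perk and Atf6 occurs on protein and by splicing, so the levels of their own transcripts do not measure it.

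The element through which Atf6 acts on chaperone genes, the ER stress response element (ERSE), is a CCAAT box followed after 9 bases by CCACG, and it is shown because it is found before many chaperone members and before neither of the members called below. The motif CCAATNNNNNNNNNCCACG was searched on both strands of RefSeq promoters (GRCm38.p6), from 250 bases before to 50 after each gene's start. It was found in 39 of 32851 promoters (0.12%) and in 9 of the 30 members that have a promoter in that table. Manf, Hyou1, Atf6 and Derl1 were not matched. Of the 13 matched chaperone genes, 7 hold it. The sites are printed 5′ to 3′ on the strand of the motif, with the CCAAT box and CCACG in capitals, and the sign after the coordinates is the genome strand of the motif.
Hspa5, chr2:34772025-34772043 +: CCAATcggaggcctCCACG
Hsp90b1, chr10:86705638-86705656 -: CCAATcgcaaggagCCACG
Hsp90b1, the other site, chr10:86705533-86705551 +: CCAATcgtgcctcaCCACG
Calr, chr8:84847075-84847093 +: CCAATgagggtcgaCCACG
Canx, chr11:50325800-50325818 -: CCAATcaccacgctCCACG
Pdia6, chr12:17266491-17266509 +: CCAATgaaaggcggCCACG
Dnajc3, chr14:118937827-118937845 +: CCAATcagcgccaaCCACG
Creld2, chr15:88819520-88819538 -: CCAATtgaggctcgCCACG
Syvn1, chr19:6046532-6046550 +: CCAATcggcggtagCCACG
Derl3, chr10:75893242-75893260 -: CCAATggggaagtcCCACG

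Outside the chaperones, the element was found for the degradation genes Syvn1 and Derl3 and in no promoter of the Perk-Atf4 arm. The shorter CCACG, which is part of the ERSE, was found in 32.77% of all promoters and in 24 of the 30 members. The unfolded protein response element, searched as TGACGTGG on both strands, was found in 0.68% of all promoters and in 0 of the 30. The composite element through which Atf4 acts, searched as TGATGNAA on both strands, was found in 3.97% of all promoters and in 4 members. These are Asns (TGATGAAA), Chac1 (TGATGCAA) and Herpud1 (TGATGCAA), all before the start, and Trib3 (TGATGTAA), after it. A match describes letters in these windows and is not a measured binding site.

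Sdf2l1 and Edem1 were the members past the threshold, and the 250 bases before their starts are shown to let them be set beside the sites above. CCACG and its complement CGTGG are in capitals, and each stretch is read 5′ to 3′ on the strand of the gene.
Sdf2l1, chr16:17132384-17132633 -: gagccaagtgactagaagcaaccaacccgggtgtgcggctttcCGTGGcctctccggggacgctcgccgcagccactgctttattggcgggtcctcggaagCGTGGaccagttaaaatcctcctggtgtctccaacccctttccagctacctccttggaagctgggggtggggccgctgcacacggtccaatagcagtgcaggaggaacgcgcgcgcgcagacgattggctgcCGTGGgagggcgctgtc
Edem1, chr6:108828391-108828640 +: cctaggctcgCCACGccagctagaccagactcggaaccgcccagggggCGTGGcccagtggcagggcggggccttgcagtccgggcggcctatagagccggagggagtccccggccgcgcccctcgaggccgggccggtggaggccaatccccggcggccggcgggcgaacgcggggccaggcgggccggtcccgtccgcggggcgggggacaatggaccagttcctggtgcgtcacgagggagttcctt
Neither stretch holds the exact ERSE. The 9 members with the ERSE had log2 fold changes of 0.09 to 0.45 with a median of 0.31, and the 21 members whose promoter lacks it had -0.23 to 0.66 with a median of 0.20. Within the chaperones the order was the other way round, with a median of 0.32 for 7 genes with the element and 0.46 for 6 without it.

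In KO alpha cells, transcripts of 2 of the 34 genes rose and those of none fell. The genes were Sdf2l1, a cofactor of BiP, and Edem1, a mannosidase-like protein that passes misfolded glycoproteins to degradation. The called share was 5.88% of members, against 2.19% of the 18023 genes tested that were called higher and 2.2% that were called lower by DESeq2, a Wald test on counts with Benjamini-Hochberg adjustment over all genes tested and a threshold of 0.05. The quasi-likelihood test of edgeR called 0 of the 34, against 0.404% of 19310 genes called higher and 0.647% called lower, and limma-voom also called 0. At an unadjusted p under 0.05 there were 9 members in DESeq2 and 6 in edgeR.

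Most of the members' estimates pointed upward without passing the test. Log2 fold changes, KO over control throughout, ran from -0.23 to 0.66 with a median of 0.25 (0.15 without control 4 and 0.32 without control 2, the extremes of leaving out 1 library), and 30 were above 0 and 4 below. Over all genes tested the median was 0.01 and 51.7% were above 0, and over the 6670 genes with a mean of at least 1000 normalized counts the median was -0.01 and 47.9% were above 0. The members together took 0.675%, 0.698%, 0.619% and 0.535% of the counts of the 4 control libraries and 0.842%, 0.849% and 0.798% of the counts of the 3 KO libraries. The groups did not overlap in this share, which averaged 0.632% ± 0.0725 (SD, n = 4) for control and 0.830% ± 0.0277 (SD, n = 3) for KO. That share is of raw counts and moves with every other abundant transcript, glucagon included.

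Gene by gene, in 3 of the 34 members every KO library lay above every control, namely Dnajb9, Chac1 and Edem1, against 5.99% of all genes tested. Asns was the one member with every KO library below every control, against 5.88% of all genes. Control 4 was the lowest control for 25 of the 34 members, against 36.2% of all genes. The unnumbered KO library was the lowest KO library for 20, against 41.6% of all genes.

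**Figure D1:**
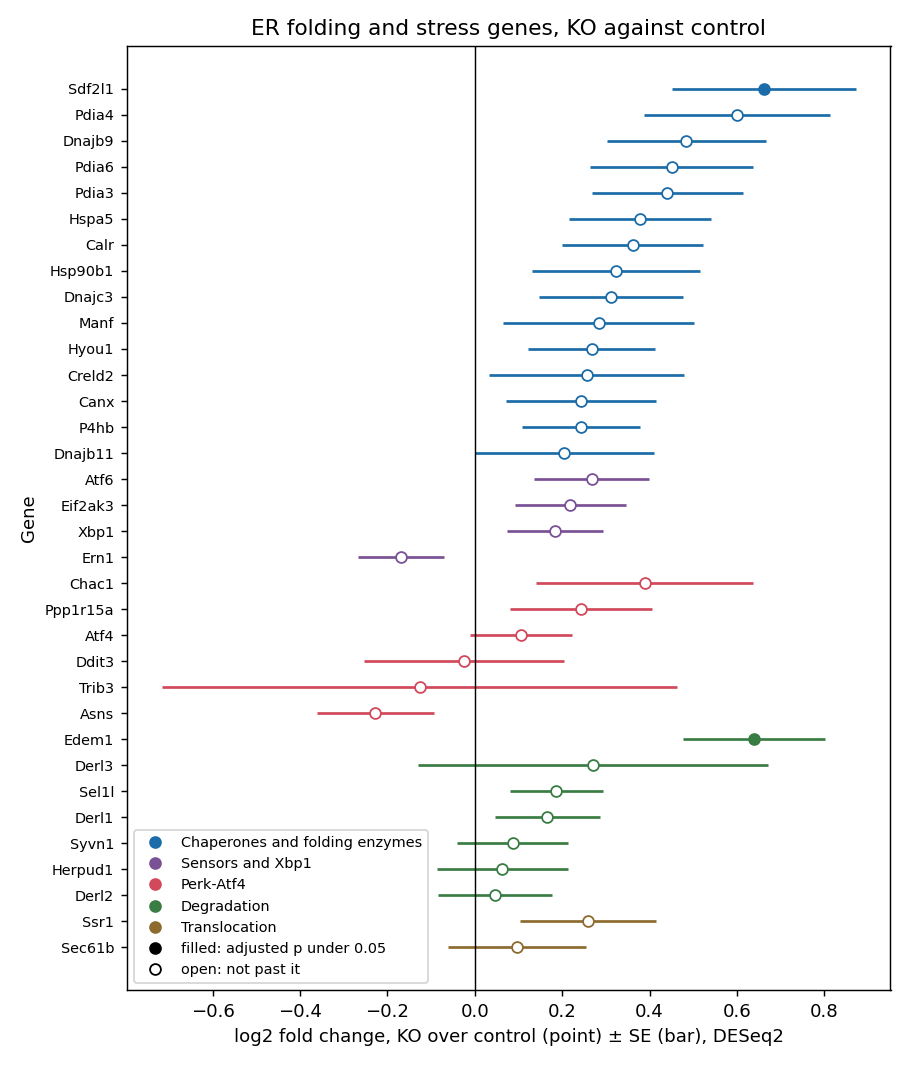
Log2 fold change (KO over control, DESeq2) of each of the 34 members on the horizontal axis, grouped by arm, with bars for ± SE. Chaperones lie between 0.20 and 0.66, and the Perk-Atf4 genes lie on both sides of 0, between -0.23 and 0.39.

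The chaperones and folding enzymes were the arm with the highest median. Of 15 genes tested 1, Sdf2l1, rose and 0 fell, all 15 estimates were above 0, and the median was 0.32 (range 0.20 to 0.66). An unadjusted p under 0.05 was reached by 7 of them in DESeq2 and 5 in edgeR. Control 4 was the lowest control in 15 of 15, and the unnumbered KO library the lowest KO library in 14. The median was 0.19 without control 4 and 0.42 without the unnumbered KO library, the lowest and highest values on leaving out 1 library.

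Sdf2l1 (ENSMUSG00000022769, GRCm38 chromosome 16, 17130138 to 17132383, minus strand) had 946, 1275, 1106 and 799 normalized counts in the controls (in the order 1 to 4, as in every such list below), then 1822 and 1859 with KO numbers 1 and 2 and 1214 for the unnumbered KO library, which comes last in every such list. Normalized counts are counts divided by DESeq2 size factors. KO 1 and KO 2 lay above all controls, while the unnumbered KO library lay below control 2, so the groups overlapped. Means were 1032 ± 205 (SD, n = 4) and 1632 ± 362 (SD, n = 3), a 1.58-fold difference with a log2 fold change of 0.66 (SE 0.21, 95% interval 0.25 to 1.07, adjusted p = 0.0398 in DESeq2). The adjusted p was 0.195 in edgeR, and in DESeq2 it was 0.163 without control 1, 0.0919 without control 3, 0.378 without KO 1 and 0.304 without KO 2. Without control 4 its log2 fold change was 0.56 and it passed (0.0456 in DESeq2).

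Hspa5 encodes BiP, the Hsp70 chaperone of the ER lumen and the usual marker of ER stress. It had 48099, 43908, 34051 and 30336 normalized counts per control library and 55014, 49489 and 47892 per KO library. The unnumbered KO library lay just under control 1, so the groups overlapped. Means were 39098 ± 8295 (SD, n = 4) and 50798 ± 3737 (SD, n = 3), and the log2 fold change of 0.38 (SE 0.16, interval 0.06 to 0.70) did not pass (adjusted p = 0.236 in DESeq2 and 0.502 in edgeR).

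The most abundant chaperone per length was Hsp90b1 (Grp94), the Hsp90 of the ER, at 11550 normalized counts per kilobase of exon in controls and 14449 in KO libraries. Its normalized counts were 49775, 53387, 52203 and 30911 among controls, compared with 60941, 66584 and 47253 among KO libraries. Controls 1 to 3 were close together and control 4 far below them, and the unnumbered KO library lay under controls 1 to 3. The log2 fold change was 0.32 (adjusted p = 0.583 in DESeq2, with SE 0.19), and 10.3% of its exon length lies under exons of a gene on the opposite strand.

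The next most abundant chaperones per kilobase of exon in controls were Pdia3 at 10243, P4hb at 9297, Hspa5 at 9245 and Calr at 8675, and the lowest was the co-chaperone Dnajb11 at 589.8. Calr and Canx are the lectin chaperones that hold glycoproteins, and their log2 fold changes were 0.36 (SE 0.16) and 0.24 (SE 0.17). Neither passed, at adjusted p = 0.276 and 0.737 in DESeq2.

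Pdia3, Pdia4, Pdia6 and P4hb are protein disulfide isomerases, which make and rearrange disulfide bonds. Pdia4 came closest to the threshold, with 9789, 12536, 9523 and 6447 normalized counts in the controls, then 14924, 17540 and 11071 with KO. KO 1 and KO 2 were the highest of the 7 libraries, and the unnumbered KO library lay under control 2. Its log2 fold change was 0.60 (adjusted p = 0.0896 in DESeq2 and 0.343 in edgeR, with SE 0.21 and interval 0.18 to 1.02). The DESeq2 value was 0.00657 without control 2 and 0.0130 without the unnumbered KO library, the only 2 of the 7 leave-one-out fits that passed. It was 0.0798 without control 4 and 0.385 without KO 1.

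The other isomerases had estimates in the same direction. Pdia3, which works with calnexin and calreticulin, had a log2 fold change of 0.44 (SE 0.17) and an adjusted p of 0.154 in DESeq2. Pdia6 had 0.45 (SE 0.19) at 0.205, or 0.0301 without the unnumbered KO library, 0.238 without control 4 and 0.678 without KO 1. P4hb had 0.24 (SE 0.14) at 0.520.

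The J-domain proteins Dnajb9, Dnajb11 and Dnajc3 and the exchange factor Hyou1 drive the ATPase cycle of BiP. Dnajb9 had 5375, 4924, 3906 and 3097 normalized counts per control library and 6271, 5507 and 6363 per KO library, and the groups did not overlap. Its log2 fold change was 0.48 (SE 0.18), which did not pass (adjusted p = 0.127 in DESeq2 and 0.340 in edgeR). The DESeq2 value was 0.0318 without control 1, 0.0294 with library totals as size factors and 0.00832 with a model term for the 2 deepest libraries. It was 0.128 without control 4, 0.331 without the unnumbered KO library and 0.521 without KO 1. Only 1 of the 7 leave-one-out fits called Dnajb9. Dnajb11 had 0.20 (SE 0.21), Dnajc3 0.31 (SE 0.16) and Hyou1 0.27 (SE 0.15), and none of them passed. Manf, a secreted ER-resident factor, and Creld2, a disulfide isomerase-like protein, had 0.28 and 0.26 (SE 0.22 each), with 8.9% of the exon length of Manf under exons of the opposite strand.

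**Figure D2:**
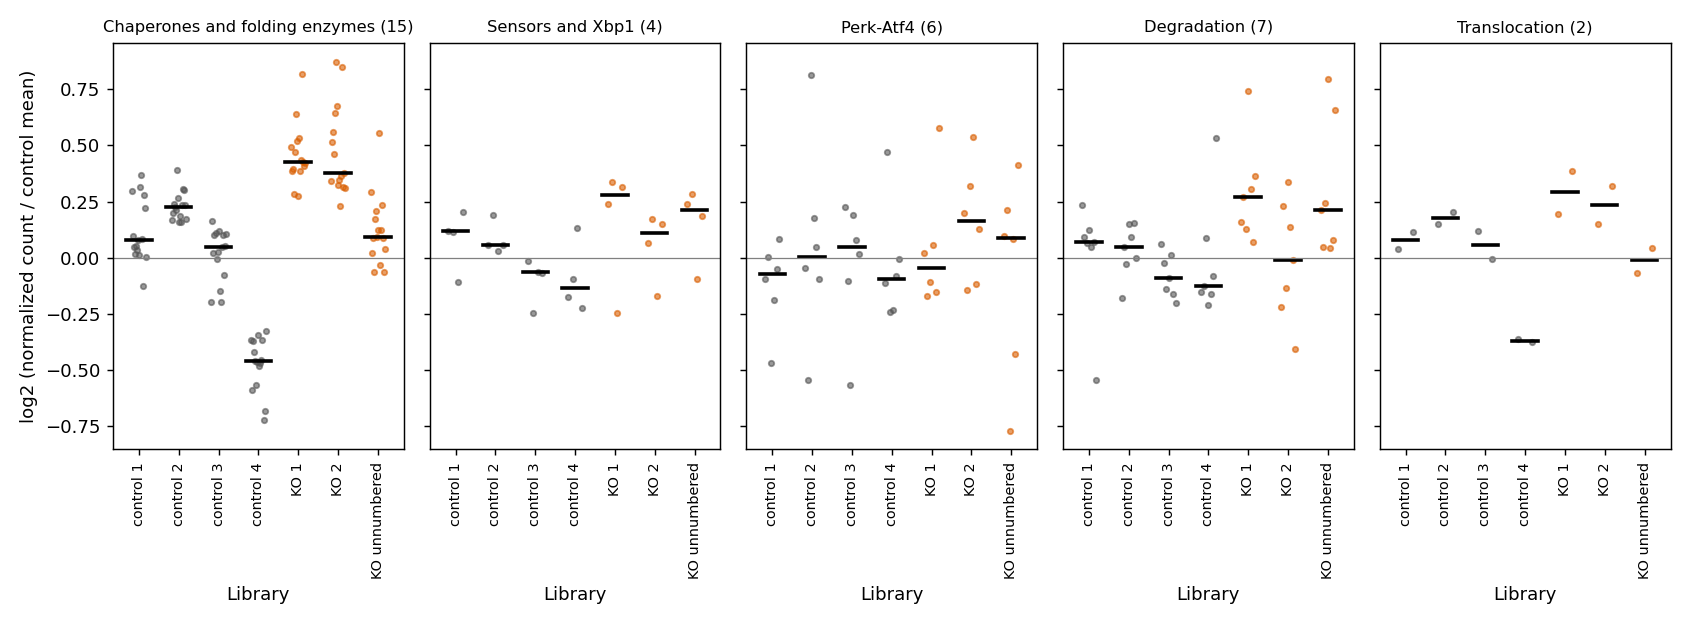
Log2 ratio of a library's normalized count to the control mean (vertical axis) by library and arm, with a point for each gene, a line at the arm's median, controls in grey and KO in orange. For chaperones control 4 is at -0.46, the other controls at 0.05 to 0.23, KO 1 and KO 2 at 0.43 and 0.38 and the unnumbered KO library at 0.09.

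The chaperones shared an order of libraries, within the groups as well as between them. The arm's median log2 ratio to the control mean was 0.08, 0.23, 0.05 and -0.46 among controls, compared with 0.43, 0.38 and 0.09 among KO libraries. Control 4 and the unnumbered KO library, the 2 deepest, were thus each the lowest of their group. Translocation genes had the same order within groups, at -0.37 in control 4 and -0.01 in the unnumbered KO library, against 0.05 to 0.18 and 0.23 to 0.29 in the others. The Perk-Atf4 arm spanned -0.10 to 0.05 in controls and -0.04 to 0.16 in KO libraries. A low control 4 was not limited to the members, since its median was -0.49 for 12 heat shock genes outside the ER, -0.31 for 21 other translocation and glycosylation genes and -0.29 for 22 other chaperones.

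Compared within the 5 shallower and within the 2 deepest libraries, nearly all chaperones were higher in KO. These classes were not fully matched in depth. KO 1 and KO 2 had 55003257 and 53717640 total counts, and controls 1 to 3 had 45483504 to 49112808. Among the 5 shallower libraries, KO 1 and KO 2 both lay above controls 1 to 3 for 14 of the 15 chaperones, against 15.1% of all genes tested. The unnumbered KO library lay above control 4 for 15 of 15, against 52.4% of all genes. That sets 1 library against 1, and control 4 was already the lowest control for all 15, so it adds little. Both held for 14 of 15, the exception being Dnajb11, against 11.3% of all genes. Both held for 0 of 4 sensors, 1 of 6 Perk-Atf4 genes (Chac1), 3 of 7 degradation genes and 1 of 2 translocation genes. Outside the members they held for 11 of 22 chaperones, 10 of 21 translocation and glycosylation genes and 6 of 18 degradation genes. The numbers were 5 of 11 stress regulators, 5 of 29 Atf4 and integrated stress response genes and 0 of 12 heat shock genes outside the ER. Among markers they were 4 of 8 for beta, 2 of 4 for delta, 2 of 2 for gamma and 1 of 10 for alpha cells. This count was added after the values had been seen and has no test of its own. The chaperones shared an order of libraries, so their number is not a number of separate observations.

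A model term for the 2 deepest libraries gave 15 calls among the 34 members and 1380 among all genes. That term treats control 4 and the unnumbered KO library as 1 class, although 31024 and 25873 genes were detected in them. The 15 were 13 chaperones (Hspa5, Hsp90b1, Calr, Canx, Pdia3, Pdia4, Pdia6, P4hb, Dnajb9, Dnajc3, Sdf2l1, Creld2 and Hyou1), Edem1 and Ssr1. Leaving those 2 libraries out gave 7, namely Hsp90b1, Calr, Pdia3, Pdia4, Pdia6, Sdf2l1 and Edem1, and 880 among all genes.

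Markers of other cells differed between these libraries too. Control 4 was also the lowest control for all 8 beta cell markers and held 219495 normalized counts of Ins2, against 345021 to 463704 in the other controls and 328548 to 624599 in KO libraries. All 8 beta cell markers had estimates above 0 in KO and 1, Iapp, was called. DESeq2 also called 2 of 2 gamma, 2 of 4 delta and 1 of 5 duct markers higher, against 2.19% of all genes. It called 7 of 10 alpha markers and 1 of 3 tested leukocyte markers lower, against 2.2% of all genes. edgeR called 1 gamma marker higher and 3 alpha markers lower, against 0.404% and 0.647% of all genes, and no beta, delta, duct or leukocyte marker. Marker sums per group for beta, delta, gamma and acinar cells stand in the paragraph on the libraries. With the acinar marker level as a covariate the chaperone median was 0.29, against 0.32 without it. The part of the other markers in the chaperone levels was not tested.

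Among the sensors and Xbp1, 0 of 4 passed in DESeq2 or in edgeR, and 1 had an unadjusted p under 0.05 in DESeq2 (Atf6). The median was 0.20 (range -0.17 to 0.27), and on leaving out 1 library it lay between 0.14 (control 4) and 0.26 (control 1). Xbp1, the factor made by Ire1 splicing, was the most abundant per length, at 2118 normalized counts per kilobase of exon in controls. Ern1 had 1801, Eif2ak3 767 and Atf6 525.

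Xbp1 had 7470, 7150, 6811 and 6084 normalized counts in the controls, then 8125, 7203 and 8119 with KO. KO 2 lay under control 1, so the groups overlapped, and the log2 fold change was 0.18 (adjusted p = 0.585 in DESeq2, with SE 0.11 and interval -0.03 to 0.40). The gene counts do not separate spliced from unspliced Xbp1. Atf6 had 5254, 5532, 4083 and 4535 against 6132, 5473 and 5910 and a log2 fold change of 0.27 (adjusted p = 0.374 in DESeq2, with SE 0.13).

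The kinases Ern1 and Eif2ak3 had estimates on either side of 0. Ern1 had 13634, 15031, 14092 and 16114 normalized counts per control library and 12395, 13086 and 13779 per KO library, with a log2 fold change of -0.17 (adjusted p = 0.561 in DESeq2, with SE 0.10). Control 4 was its highest library, the reverse of its place among chaperones. Eif2ak3 had 0.22 (SE 0.13) at an adjusted p of 0.557 in DESeq2, with 8.0% of its exon length under exons of the opposite strand.

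The Perk-Atf4 arm held no gene past the threshold, with 0 of 6 in DESeq2 and in edgeR and 0 at an unadjusted p under 0.05 in both. Its estimates were split, 3 above 0 and 3 below, with a median of 0.04 (range -0.23 to 0.39). On leaving out 1 library the median lay between 0.02 (control 1) and 0.20 (control 2). Atf4 and Ddit3, the transcription factors of the arm, had differences close to 0, and the known Atf4 targets Asns and Chac1 lay in opposite directions.

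Atf4 had 11071, 11466, 13825 and 10940 normalized counts among controls, compared with 11980, 13553 and 12626 among KO libraries. All 3 KO libraries lay between control 2 and control 3, and the log2 fold change was 0.11 (adjusted p = 0.939 in DESeq2 and 0.885 in edgeR, with SE 0.12 and interval -0.12 to 0.33). Atf4 is controlled mainly at translation, which these counts do not measure.

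Ddit3 (Chop), a transcription factor tied to stress-induced cell death, had 1157, 791, 1077 and 1602 normalized counts in the controls, then 1029, 1046 and 1339 with KO. Control 4 was the highest and control 2 the lowest library, and all KO libraries lay between them. The log2 fold change was -0.02 with an interval of -0.47 to 0.43 (adjusted p = 0.999 in DESeq2, with SE 0.23). Changes within that interval are not excluded by these libraries.

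Ppp1r15a (Gadd34), the phosphatase subunit that reverses Perk's phosphorylation, was the most abundant of the arm per kilobase of exon in controls, at 5974, followed by Atf4 at 5015, Ddit3 at 675, Asns at 477, Chac1 at 87.8 and Trib3 at 19.4. It had 15408, 19835, 20007 and 14930 normalized counts per control library and 18266, 25493 and 18559 per KO library. KO 2 stood above the rest, the other KO libraries lay inside the control range, and the log2 fold change was 0.24 (adjusted p = 0.686 in DESeq2, with SE 0.16).

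Chac1 and Asns were the members of the arm whose groups did not overlap. Chac1, an enzyme that breaks down glutathione, had 152, 134, 145 and 143 normalized counts among controls, compared with 215, 157 and 192 among KO libraries, with KO 2 only just above control 1. Its log2 fold change was 0.39 (adjusted p = 0.651 in DESeq2, with SE 0.25 and interval -0.10 to 0.88). Asns, asparagine synthetase, had 1259, 1348, 1379 and 1233 against 1173, 1203 and 967, every KO library below every control, and a log2 fold change of -0.23 (adjusted p = 0.571 in DESeq2 and 0.549 in edgeR, with SE 0.13 and interval -0.49 to 0.03).

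Trib3, a pseudokinase, was the least abundant member of the arm and the least precise. Its normalized counts were 29.5, 73.1, 27.5 and 34.7 in the controls, then 38.1, 51.6 and 23.7 with KO. The highest library was a control and the lowest a KO library, and the log2 fold change of -0.13 had an interval of -1.28 to 1.03 (adjusted p = 0.999 in DESeq2, with SE 0.59).

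**Figure D3:**
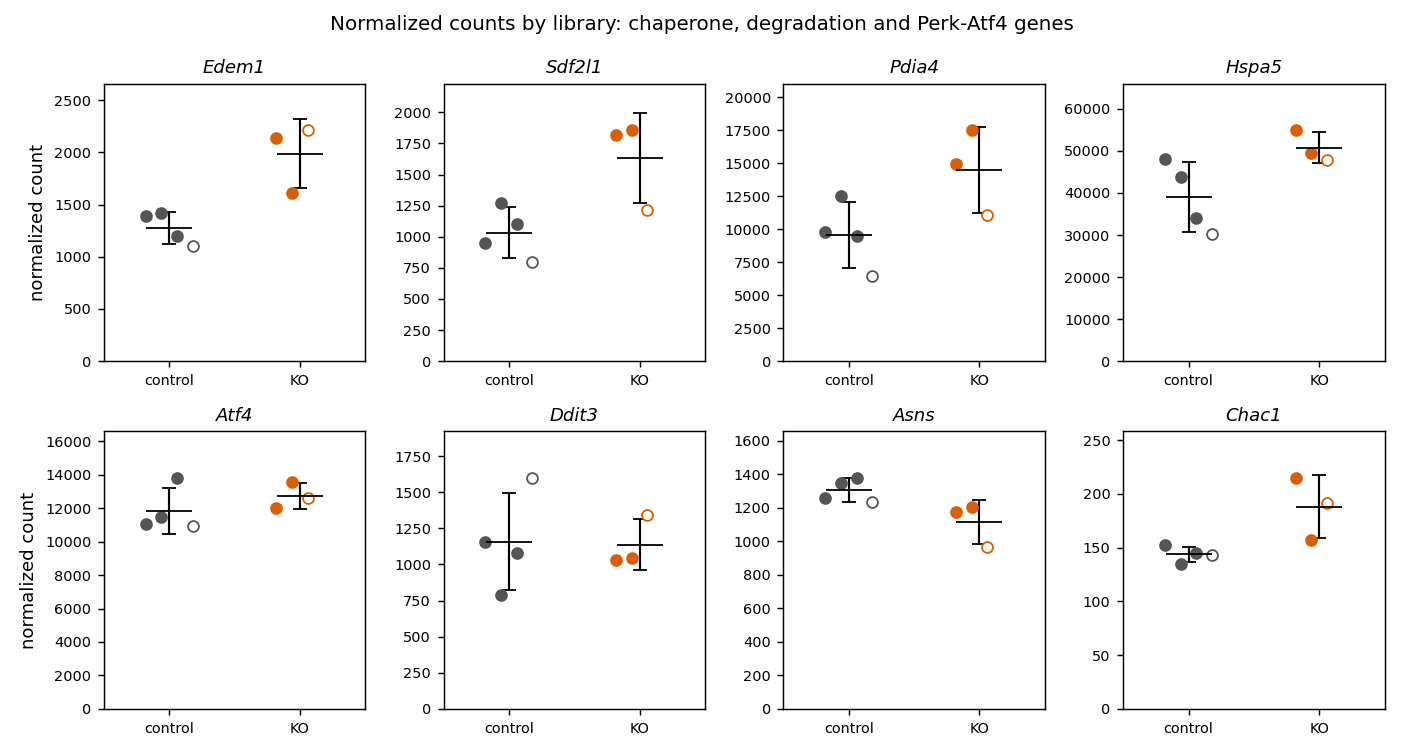
Normalized counts per library for Edem1, Sdf2l1, Pdia4, Hspa5, Atf4, Ddit3, Asns and Chac1, controls beside KO, with the group mean and SD, and with open circles for the 2 deepest libraries. For Edem1 the KO libraries lie between 1611 and 2215, above controls at 1101 to 1415, while for Ddit3 they lie within the control range of 791 to 1602.

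In the degradation arm 1 of 7 genes, Edem1, rose and 0 fell. All 7 estimates were above 0, with a median of 0.17 (range 0.05 to 0.64). The median was 0.03 without the unnumbered KO library, 0.09 without KO 1 and 0.12 to 0.20 without any 1 of the others. Edem1 (ENSMUSG00000030104, GRCm38 chromosome 6, 108828641 to 108859356, plus strand) had 1390, 1415, 1199 and 1101 normalized counts per control library and 2135, 1611 and 2215 per KO library. All KO libraries were above all controls, with KO 2 the nearest to them. Means were 1276 ± 151 (SD, n = 4) and 1987 ± 328 (SD, n = 3), a 1.56-fold difference with a log2 fold change of 0.64 (adjusted p = 0.00371 in DESeq2, with SE 0.16 and interval 0.32 to 0.96).

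The call for Edem1 depended on the tool and on single libraries. The adjusted p was 0.0853 in edgeR and 0.0746 in limma-voom, and in DESeq2 it was 0.115 without KO 1, and 0.0678 when the unnumbered KO library was left out. Without control 4 the log2 fold change was 0.58 and it passed (0.00708 in DESeq2). The unnumbered KO library was the highest of all for Edem1, as for Dnajb9, while it was the lowest KO library for the other 14 chaperones. At 198 normalized counts per kilobase of exon in controls and 308 in KO libraries it was among the less abundant members.

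Sel1l and Syvn1 (Hrd1) form the ubiquitin ligase complex of ER-associated degradation, Herpud1 organises it, and the derlins help to move substrates out of the ER. Herpud1 was the most abundant per kilobase of exon in controls, at 3752, with Derl1 at 709, Syvn1 at 697, Sel1l at 569, Derl2 at 150.3 and Derl3 at 55.2. Herpud1 had 10295, 7721, 9140 and 7858 normalized counts among controls, compared with 9774, 7506 and 10139 among KO libraries. The highest library was a control and the lowest a KO library, with a log2 fold change of 0.06 (adjusted p = 0.999 in DESeq2, with SE 0.15).

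Of the remaining degradation genes, none passed. Sel1l had a log2 fold change of 0.19 (SE 0.11), Syvn1 0.09 (SE 0.13), Derl1 0.17 (SE 0.12) and Derl2 0.05 (SE 0.13). Derl3 had 0.27 with a wider error (SE 0.40), at 75 to 160 normalized counts in controls and 83 to 174 in KO libraries. The adjusted p of the ligase genes in DESeq2 was 0.547 for Sel1l and 0.979 for Syvn1.

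Neither translocation gene passed in DESeq2 or in edgeR, and neither had an unadjusted p under 0.05. Ssr1, a subunit of the translocon-associated complex, had 8982, 9551, 8245 and 6380 normalized counts in the controls, then 10839, 10353 and 8548 with KO. Control 4 was the lowest, the unnumbered KO library lay under controls 1 and 2, and the log2 fold change was 0.26 (adjusted p = 0.595 in DESeq2, with SE 0.16). Sec61b, a subunit of the translocation channel and the more abundant per kilobase of exon (1441 against 795 in controls), had 1883, 2032, 1987 and 1424 against 2097, 2031 and 1745. Its log2 fold change was 0.10 (adjusted p = 0.984 in DESeq2, with SE 0.16).

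Genes of the same pathways outside the members were described from lists written beside them. Of 29 tested genes of the Atf4 and integrated stress response group, 1 rose and 2 fell, and the median was -0.00073, with 14 above 0 and 15 below (median -0.10 without control 4 and 0.03 without the unnumbered KO library, the extremes). Gars, the glycyl-tRNA synthetase, had 9513, 9453, 10375 and 9182 normalized counts per control library and 6461, 6115 and 5321 per KO library. The groups were far apart, and Gars fell by 0.69 on the log2 scale (adjusted p = 1.72e-08 in DESeq2 and 0.0177 in edgeR, with SE 0.11).

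Slc3a2, the heavy chain of several amino acid transporters, fell as well. It had 8199, 6920, 9034 and 6623 normalized counts among controls, compared with 4175, 4377 and 3448 among KO libraries, with a log2 fold change of -0.94 (adjusted p = 2.59e-08 in DESeq2 and 0.0202 in edgeR, with SE 0.15). Gars and Slc3a2 are known Atf4 targets, and both passed in each of the 7 leave-one-out fits. Atf3, a transcription factor that is also an immediate early gene, rose, with 6665, 7385, 8343 and 9666 in the controls, then 10994, 12046 and 18271 with KO. Its log2 fold change was 0.78 (adjusted p = 0.00202 in DESeq2 and 0.108 in edgeR, with SE 0.19), and it too passed in DESeq2 in all 7.

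**Figure D4:**
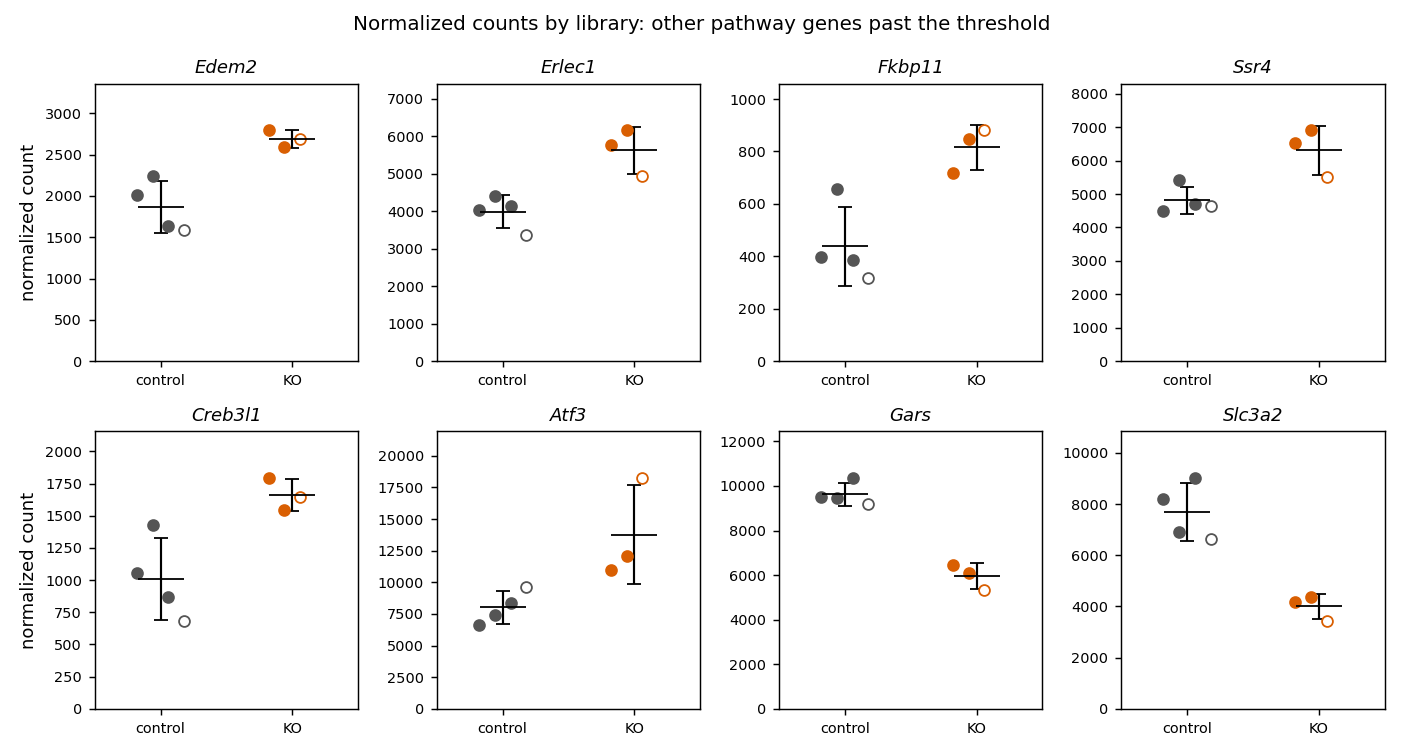
Normalized counts per library for the 8 genes of the pathway lists beside the members that passed the threshold in DESeq2, controls beside KO, with the group mean and SD. Called marker genes and other called genes are not shown. The KO libraries do not overlap the controls in any of the 8, and lie below them for Gars and Slc3a2.

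Of 18 other degradation genes 2 rose, Edem2 and Erlec1, and 0 fell (median 0.10, or 0.06 without control 4 or KO 2 and 0.13 without the unnumbered KO library). Edem2 is a mannosidase-family relative of Edem1, and Erlec1 is a lectin that binds glycoproteins bound for degradation. Edem2 had 2006, 2247, 1635 and 1583 normalized counts per control library and 2801, 2588 and 2684 per KO library. Every KO library lay above every control, and the log2 fold change was 0.53 (adjusted p = 0.0153 in DESeq2 and 0.126 in edgeR, with SE 0.15). Without control 3, KO 1, KO 2 or the unnumbered KO library it did not pass, at 0.113, 0.204, 0.066 and 0.0716 in DESeq2.

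Erlec1 had 4037, 4417, 4132 and 3370 normalized counts among controls, compared with 5759, 6172 and 4943 among KO libraries. The groups did not overlap, and the log2 fold change was 0.50 (adjusted p = 0.00709 in DESeq2 and 0.101 in edgeR, with SE 0.13), or 0.128 without KO 1 and 0.121 without KO 2 in DESeq2. Other proteins known to trim or recognise the sugars of misfolded glycoproteins did not pass, and were named after their values were seen. The log2 fold changes were 0.23 for Os9, 0.13 for Edem3 and 0.17 for Man1b1, with adjusted p of 0.775, 0.844 and 0.809 in DESeq2.

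Of 22 other chaperones and folding enzymes, 1 rose, 0 fell and 20 had estimates above 0 (median 0.19, or 0.12 without control 4 and 0.26 without the unnumbered KO library). The one called was Fkbp11, a prolyl isomerase of the secretory pathway, with 396, 658, 384 and 317 normalized counts in the controls, then 718, 847 and 882 with KO. Its groups did not overlap, with control 2 the nearest to the KO libraries. The log2 fold change was 0.90 (adjusted p = 0.0149 in DESeq2 and 0.145 in edgeR, with SE 0.26), and 2 of the 7 leave-one-out fits called it. It was not called without control 1 (0.0841), control 3 (0.0892), KO 1 (0.059), KO 2 (0.116) or the unnumbered KO library (0.12), all by DESeq2.

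Of 21 other translocation and glycosylation genes all had estimates above 0, with a median of 0.17 (0.09 without control 4 and 0.23 without control 2), and 1 rose. Ssr4, a subunit of the same complex as Ssr1, had 4501, 5409, 4706 and 4645 normalized counts per control library and 6520, 6919 and 5497 per KO library, and its groups barely separated, at control 2 and the unnumbered KO library. The log2 fold change was 0.39 (adjusted p = 0.0354 in DESeq2 and 0.163 in edgeR, with SE 0.12). It did not pass in DESeq2 without control 1 (0.181), control 3 (0.17), control 4 (0.0644), KO 1 (0.33) or KO 2 (0.301).

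Of 11 other stress regulators 1 rose, with 7 estimates above 0 and 4 below (median 0.04, or -0.06 without control 4 and 0.16 without the unnumbered KO library). Creb3l1 (Oasis), an ER membrane transcription factor related to Atf6 in how it is activated, had 1059, 1431, 865 and 681 normalized counts among controls, compared with 1796, 1547 and 1642 among KO libraries, with no overlap. The log2 fold change was 0.72 (adjusted p = 0.0411 in DESeq2 and 0.218 in edgeR, with SE 0.23), and without control 1, control 3, KO 1, KO 2 or the unnumbered KO library it did not pass, at 0.101, 0.189, 0.329, 0.107 and 0.123 in DESeq2.

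**Figure D5:**
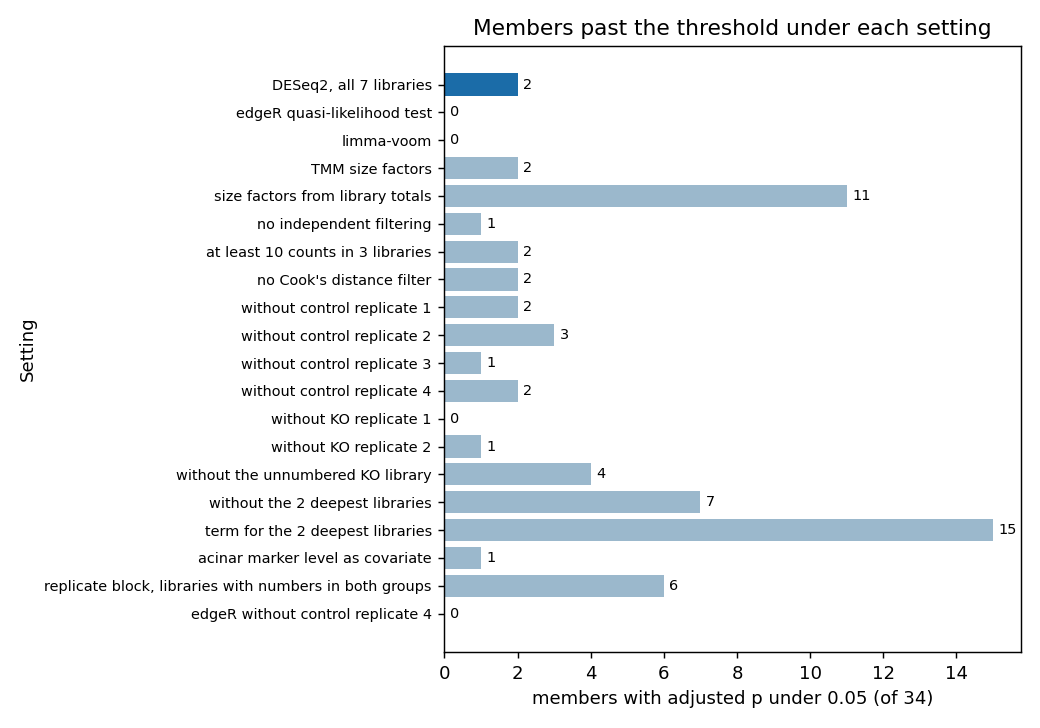
Number of the 34 members with an adjusted p under 0.05 under each processing setting. The number is 2 in the DESeq2 comparison as described, 0 in edgeR and limma-voom, and 15 with a model term for the 2 deepest libraries.

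The number of members called ranged from 0 to 15 over the settings, as the plot of calls by setting shows. Scaling each library by its total count in place of the median-of-ratios factors gave 11 calls among the members. That scaling moved the median log2 fold change of all genes from 0.01 to 0.11 and the share of higher calls among all calls from 49.8% to 69.7%. Leaving out 1 library in turn gave 0 to 4 calls, with 0 when KO 1 was left out and 4 when the unnumbered KO library was.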

How the data were processed

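RNA of FACS-sorted alpha cells (Qiagen RNeasy Micro) went into strand-specific total RNA libraries (Takara SMARTer v2 Pico), per the labels' protocols. The labels say ribo-depleted while their molecule field says polyA RNA, so the RNA fraction is not settled. The authors deposited gene counts as whole numbers in 1 table, and FastQC, STAR, featureCounts, DESeq2 and the mm10 build are named in the submitters' processing notes without versions. The strand setting and the annotation of the counting are not given in the sources used here. Between 84.4% and 88.9% of the counts between 1 and 10 were even, so errors that rest on counting alone are too small. Symbols, positions, exon lengths and exon overlaps came from GENCODE M21 (GRCm38).

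KO was compared with control in DESeq2 1.42.0 (Wald test, R 4.3.3, no covariate), as the series' design text states. Benjamini-Hochberg adjustment ran over all genes tested, with a threshold of 0.05, and intervals are the estimate ± 1.96 SE (95%). edgeR 4.0.16 (quasi-likelihood) and limma 3.58.1 (voom) were alternatives, beside other size factors, other filters, leaving out each library, an acinar covariate, a replicate block and the 2 deepest libraries modelled or left out. The scripts were tested on simulated data. The members, arms and gene lists were chosen with earlier results of these data known, and no list was tested as a set. Values in every library were given, by rule, for called members, the largest change and the most abundant gene of each arm, Hspa5, Atf4, Ddit3 and Xbp1, and for called genes of the other pathway lists. Pdia4, Dnajb9, Ern1, Asns and Trib3 were added after their values were seen, as were the count of genes within depth classes and the edgeR fit without control 4.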

Additional observations from a re-analysis of the deposited data

Results flagged for a closer look

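In the 4 controls, 42 named genes were examined for a library far from the other 3 (a gap above Dixon's 95% critical share of the group's range), and 2 were found where chance gives about 2.1. Hsp90b1 had 30911 normalized counts in control 4, against 49775 to 53387 in the other controls, a gap of 0.839 of the range. Control 4 is the library that was lowest for all 15 chaperones. Trib3 had 73.1 normalized counts in control 2, against 27.5 to 34.7 in the others, a gap of 0.842 of the range.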

How the results depend on the processing

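Of the members, 2 were called in the comparison as reported, with 791 calls among all genes. The members' count was 0 in edgeR (203 among all genes), 0 in limma-voom (292), 0 in edgeR without control 4 (249), 1 without independent filtering, 1 with an acinar covariate, 11 with library totals, 7 without the 2 deepest libraries and 15 with a term for them (1380). Leaving out each library gave 0 to 4 members and 430 to 898 genes. With a replicate block 6 members were called (Hsp90b1, Calr, Pdia3, Pdia4, Pdia6 and Sdf2l1), while Edem1 had 0.40 at an adjusted p of 0.329 in DESeq2. Same-numbered libraries deviated together at r = 0.29 and 0.28 across genes, but only numbers 1 and 2 are shared between groups and the labels do not say what a number marks, so the pairing is not established. Over 42 named genes, 798 alternative values kept direction and side of the threshold in 680, lost it in 61, gained it in 37 and turned direction in 20, in 6 uncalled members. Those log2 fold changes were as follows, with ranges for leaving out each library. Ddit3 was 0.07 with library totals, -0.17 to 0.18 without 1 library (0.18 without control 4, in edgeR too), 0.04 without the 2 deepest and 0.11 with the block. Trib3 was -0.42 to 0.30 without 1 library, 0.04 without the 2 deepest and 0.08 with the acinar covariate. Derl2 was -0.005 to 0.1 without 1 library and -0.08 with the block. Sec61b was -0.01 to 0.17, and -0.00081 in edgeR without control 4. Herpud1 was -0.02 at the lowest without 1 library, -0.07 without the 2 deepest and -0.06 with the block, and Syvn1 was -0.0017 at the lowest and -0.03 with the block. The cause of these moves was not tested.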

Other observations

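Heat shock genes outside the ER were low in control 4 as the ER chaperones were. The 12 genes are cytosolic except for the mitochondrial Hspd1 and Hspe1, at log2 fold changes of -0.12 and -0.01. Of the 12, 0 were called in DESeq2 or in edgeR, and 1 had an unadjusted p under 0.05 in each. The median log2 fold change was 0.08, with -0.04 without control 4 and 0.17 without control 1 as the extremes on leaving out 1 library. Control 4 was the lowest control for 11 of the 12 and the unnumbered KO library lay above it for 12, while KO 1 and KO 2 lay above controls 1 to 3 for 0. A difference from the ER chaperones was not tested. Of 11 immediate early genes, which sorting and tissue dissociation are known to induce, 0 were called in DESeq2 or in edgeR, with 3 and 1 at an unadjusted p under 0.05. Their median was 0.33, or 0.18 without control 1, 0.19 without KO 2 and 0.44 without control 3, with 10 estimates above 0 and 1 below.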
